A study of Mus musculus with 4 samples.

Results

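The NMDA receptor is a glutamate-gated, calcium-permeable channel that needs glycine or D-serine as a co-agonist and opens only when the membrane is already depolarised. In the CA1 field of the hippocampus it is known for starting the synaptic changes behind long-term potentiation and contextual memory. Each receptor pairs obligatory GluN1 subunits, made from Grin1, with GluN2 subunits made from Grin2a, Grin2b, Grin2c or Grin2d, which set the channel's kinetics and its block by magnesium. PSD-95, made from Dlg4, is the postsynaptic scaffold that binds the C-terminal tails of GluN2 subunits.

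The probe sets described here are all those whose platform annotation gave 1 gene symbol equal to Grin1, Grin2a, Grin2b, Grin2c, Grin2d or Dlg4, with no filter on level. There were 5 of 12488 probe sets, for 5 of the 8251 genes named on the array, namely 1 each for Grin2a, Grin2b, Grin2c, Grin2d and Dlg4. No probe set carried Grin1 as its only symbol, so the obligatory subunit was not analysed here. With 1 probe set per gene, no value had a second probe set to set it against.

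The 4 arrays each measured total RNA of CA1 from young C57BL/6J males, handled and left otherwise untreated, extracted when separate shocked mice stood 1, 2, 4 or 6 hr past their final shock. Each time has 1 array, so no pair of times can be tested, and an effect of the hour cannot be told apart from any other difference between arrays. How many mice went into an array, and whether the arrays came from separate mice, was not given in any source used here, so a p-value here gauges nothing beyond how these 4 arrays scatter, which may be technical. Values are the authors' intensities, and a value under 54.6, the 25th percentile of all values, was treated as lying at a floor, with no order among such values. The median intensity was between 173 and 204 on the 4 arrays, between 23.4% and 28.3% of values fell under the floor, and the 2 hr array was lowest in median and highest in that share. All 5 CA1 pyramidal markers on the array (Wfs1, Dcn, Lefty1, Pou3f1 and Man1a) were above the floor on every array, with a summed intensity between 6884 and 8754. So were 4 of the 5 CA3 pyramidal and 4 of the 5 dentate granule markers on the array. The CA3 exception was Iyd, above the floor only at 2 hr, at 76.7. The dentate exception was Prox1, under the floor at 2 and 4 hr (14.6 and 18.1) and above it at 1 and 6 hr (63.4 and 106.6). The CA1 markers alone therefore do not set these samples apart from neighbouring fields. In bulk tissue, fewer cells of a type and less RNA per cell cannot be told apart.

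The probe sets of the subunits and the scaffold fell into 2 groups, which also differed in mean level. Spread over the arrays varied with mean level among all probe sets, as given further below. Grin2c and Dlg4 were above the floor on all 4 arrays and their highest array exceeded the lowest by less than 1.5-fold. Grin2a, Grin2b and Grin2d each lay at the floor on 1 array, a different one for each, and ranged over at least 2.62-fold. None of the 4 probe sets bright enough to test had a slope over the hours that passed the threshold.

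Grin2a, the subunit that becomes prominent in hippocampal neurons as they mature, read 207.7, 27.9, 269 and 219 on the 1, 2, 4 and 6 hr arrays. The 1, 4 and 6 hr arrays lay close together and the 2 hr array lay at the floor. The 2 hr array was at least 3.80-fold below the 1 hr array, and the 4 hr array was at least 4.93-fold above it. Without the 2 hr array the highest value exceeded the lowest by 1.30-fold. That array also had the lowest median intensity of the 4 (173), the most values under the floor (28.3%) and the highest 3' to 5' ratio of the Gapdh control (7.56, against 4.84 to 6.25 on the other arrays), a measure of RNA and labelling integrity, while its Actb ratio of 3.20 lay within the other arrays' range of 2.99 to 3.44. Their part in the low Grin2a value was not tested.

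Grin2b, the subunit that predominates early in development and prolongs the synaptic current, read 121, 214.4, 194.1 and 32.2 on the 1, 2, 4 and 6 hr arrays. Its 2 and 4 hr arrays were nearly level, the 1 hr array was lower, and the 6 hr array lay at the floor. The 6 hr array was at least 3.93-fold below the 2 hr array and at least 2.22-fold below the 1 hr array. Without the 6 hr array the range was 1.77-fold. Summed oligodendrocyte markers were also lowest at 6 hr, at 18000 against 23010 to 24500 on the other arrays. The brightest of them, Mobp, read 9821 at 6 hr against 13670 to 14210. Of the 7 on the array, 6 were above the floor throughout and 4 were lowest at 6 hr. Sox10 and Cnp were instead highest there, Cnp at 91.1 against 18.7 to 44.6, all under the floor, on the other arrays. Summed endothelial and mural markers were lowest at 6 hr too, at 1694 against 2010 to 2046. Of these 8 markers, 4 were lowest at 6 hr. Kdr and Tagln were instead highest there, at 267.3 against 115.3 to 135.5 and at 283.8 against 53.3 to 164.8. Neuronal sums were divided at 6 hr. The excitatory neuron sum was the highest of the 4, at 9059 against 5804 to 7642. Its brightest marker, Nrgn, was highest there, at 5709 against 1884 to 4173. Of the 5 excitatory markers, however, 2 were lowest at 6 hr, Camk2a and Neurod2, while Neurod6 and Tbr1 were in between. The CA1 pyramidal sum was 7314 against 6884 to 8754, and the inhibitory neuron sum was the lowest, at 20960 against 22610 to 24910. The part of tissue makeup in the Grin2b value was not tested.

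Grin2d, known in the adult hippocampus mainly from inhibitory interneurons, read 32.5, 142.9, 140.2 and 75 on the 1, 2, 4 and 6 hr arrays. It was at the floor at 1 hr, level at 2 and 4 hr, and between these at 6 hr. The 2 hr array was at least 2.62-fold above the 1 hr array and 1.91-fold above the 6 hr array. All 12 inhibitory neuron markers were above the floor on every array. Their summed intensity was 22610, 24910, 24730 and 20960 in that order, so the 2 and 4 hr arrays were the higher ones there too, by far less than for Grin2d. Single inhibitory markers were mixed, with 5 of the 12 lowest at 1 hr and 4 at 6 hr. Gad1 and Dlx2 were lowest at 4 hr, Pvalb was lowest at 2 hr, and Calb2 was highest at 6 hr. The part of interneuron content in the Grin2d values was not tested.

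Grin2c, best known from cerebellar granule cells and also described in astrocytes of the forebrain, read 545, 762, 725.3 and 805.2 on the 1, 2, 4 and 6 hr arrays, a mean of 709 ± 114 (SD over the 4 times, n = 4). The 1 hr array was the low one, and the other 3 lay within 1.11-fold of each other. The 6 hr array exceeded the 1 hr array by 1.48-fold. Gabra6, a defining marker of cerebellar granule cells, was under the floor on the 2, 4 and 6 hr arrays, at 30.6 to 49.7, and read 132.9 at 1 hr, the array where Grin2c was lowest. Of the other 4 cerebellar markers on the array, Cbln1, Zic2 and En2 were above the floor throughout, and Zic1 was under it at 1 hr. The summed astrocyte markers were 21590, 22930, 21870 and 21450 in that order. Single astrocyte markers differed from that sum: 4 of the 7 were lowest at 1 hr, as Grin2c was, among them Aqp4 at 919.9 against 1116 to 1412 on the other arrays and Slc1a2 at 217.7 against 329.6 to 580.3. Another of the 4, S100b, was only slightly lower at 1 hr, at 707.9 against 709.2 to 785. Of the remaining astrocyte markers, Gfap was highest at 1 hr, at 2646 against 1545 to 2122. Gja1 and Glul were lowest on other arrays. The part of astrocyte content in the Grin2c values was not tested.

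Dlg4 read 784.8, 566.7, 639.1 and 585.5 on the 1, 2, 4 and 6 hr arrays, a mean of 644 ± 98.7 (SD over the 4 times, n = 4). Here the 1 hr array was the high one, and the others lay within 1.13-fold of each other. The 1 hr array exceeded the 2 hr array by 1.38-fold. Grin2c and Dlg4 thus departed most from their own means on the same array and in opposite directions, by -0.36 log2 units for Grin2c and 0.30 for Dlg4.

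**Figure D1:**
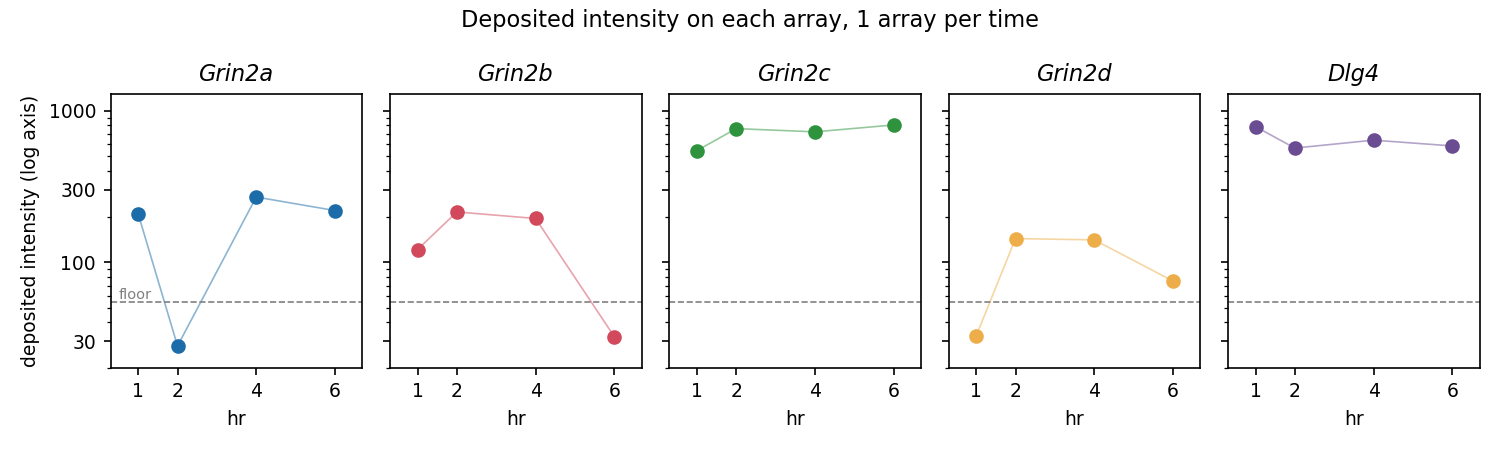
Deposited intensity (log axis) of the probe sets for Grin2a, Grin2b, Grin2c, Grin2d and Dlg4 against the hour of the array, with 1 point per array and a dashed line at the floor of 54.6. Grin2a drops under the floor at 2 hr, Grin2b at 6 hr and Grin2d at 1 hr, whereas Grin2c and Dlg4 stay between 545 and 805.2 on every array.

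For each of the 7453 probe sets that passed a filter on mean level, log2 intensity was regressed on the hour, which asked whether any of the genes drifted with extraction time. In limma's test with Benjamini-Hochberg adjustment over all of them, 0 probe sets passed at 0.05 (0%), 382 had an unadjusted p under 0.05 (5.13%), and 0 of the 4 tested members passed either way. In log2 units per hr, the fitted slope for Grin2a was 0.20 ± 0.20 (SE; adjusted p = 0.9996 in limma), with a 95% interval from -0.31 to 0.70. Grin2b had a slope of -0.25 ± 0.15 (SE, limma adjusted p = 0.9996) and an interval from -0.64 to 0.14. Without the 6 hr array the Grin2b slope was 0.18 ± 0.17 (SE), so its sign rested on that array.

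For the brighter pair the intervals were narrower. In the same unit, Grin2c had a slope of 0.085 ± 0.068 (SE; adjusted p = 0.9996 in limma), with an interval from -0.089 to 0.26. Dlg4 had a slope of -0.054 ± 0.069 (SE, limma adjusted p = 0.9996), with an interval from -0.23 to 0.12. Leaving out the 1 hr array turned the Dlg4 slope to 0.012 ± 0.095 (SE) and brought that of Grin2c to 0.020 ± 0.094 (SE). Without the 2 hr array the Grin2a slope was 0.024 ± 0.075 (SE), and without the 1 hr array it was 0.50 ± 0.20 (SE, limma adjusted p = 0.996). Grin2d lay below the filter on mean level and was not tested in this fit. With no filter its slope was 0.037 ± 0.193 (SE, limma adjusted p = 1).

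**Figure D2:**
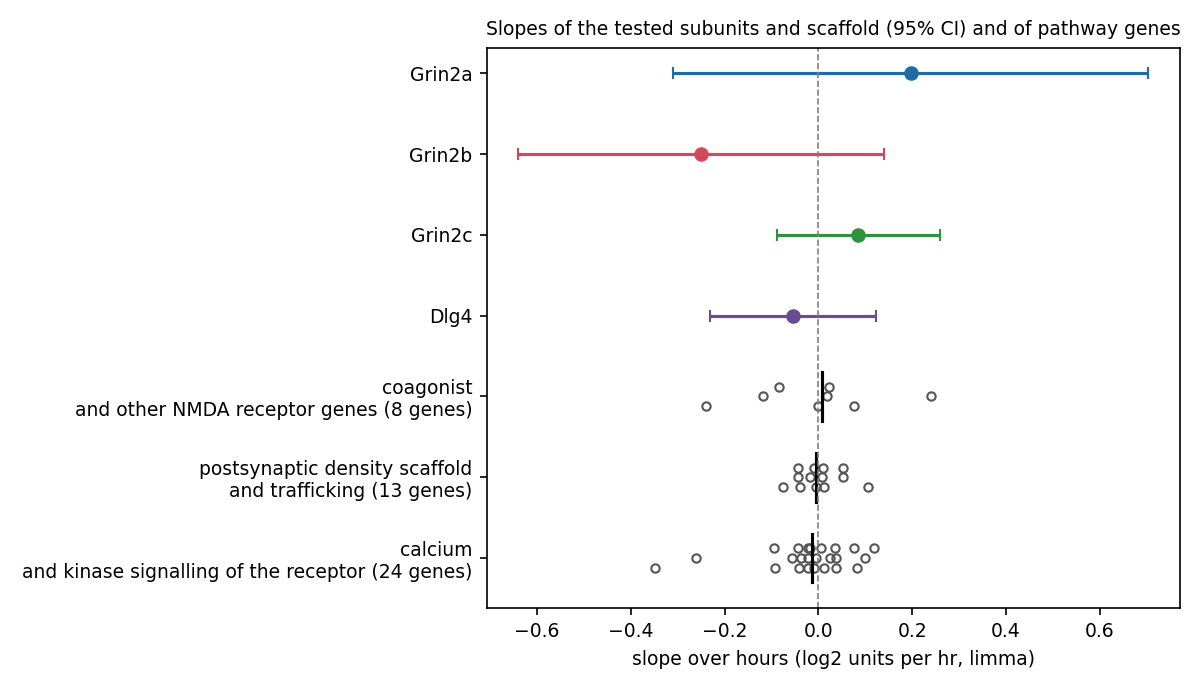
Slope over the hours in log2 units per hr for the 4 tested members, with 95% intervals as bars, and for the tested genes of 3 pathway lists, each an open circle, with a black line at the list's median. All 4 intervals include 0, and those of Grin2a and Grin2b are wider than those of Grin2c and Dlg4.

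Whether the swings of Grin2a, Grin2b and Grin2d were large depends on how far probe sets of the same level varied. Of all 12422 non-control probe sets 29.2% had a highest value at least 2-fold above the lowest, against 3 of the 5 members. When the probe sets were sorted by mean level into 4 bins of equal size, the share was 74.5% in bin 2 from the bottom, where Grin2a, Grin2b and Grin2d lay, and 4.89% in bin 4, the brightest, where Grin2c and Dlg4 lay. A range as wide as that of Grin2a (4.93-fold) was reached by 4.96% of probe sets in its bin, one as wide as that of Grin2b (3.93-fold) by 14%, and one as wide as that of Grin2d (2.62-fold) by 48.4%. In the brightest bin, 33% reached the range of Grin2c (1.48-fold) and 46.8% that of Dlg4 (1.38-fold). The spread of Grin2b, Grin2d, Grin2c and Dlg4 was thus common among probe sets of like level, and that of Grin2a less so.

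A probe set was said to stand apart on an array where it lay at least 2-fold above, or at least 2-fold below, each of the other 3. Over all probe sets 9.58% stood apart on some array, against 2 of the 5 members. In bin 2 of mean level 24.2% did, and of the members in that bin Grin2a and Grin2b did. Grin2a was apart at 2 hr, where 1.3% of all probe sets and 3.61% of those in its bin lay that far below the rest. Grin2b was apart at 6 hr, where the shares were 0.966% and 2.58%. Grin2d did not stand apart on the floored scale, but its 1 hr value lay at the floor, so the gap to its next lowest array is known only as at least 1.37-fold. With the floor at the 10th percentile of all values, 3 members stood apart in place of 2, and with the floor at the 40th percentile 0 did.

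**Figure D3:**
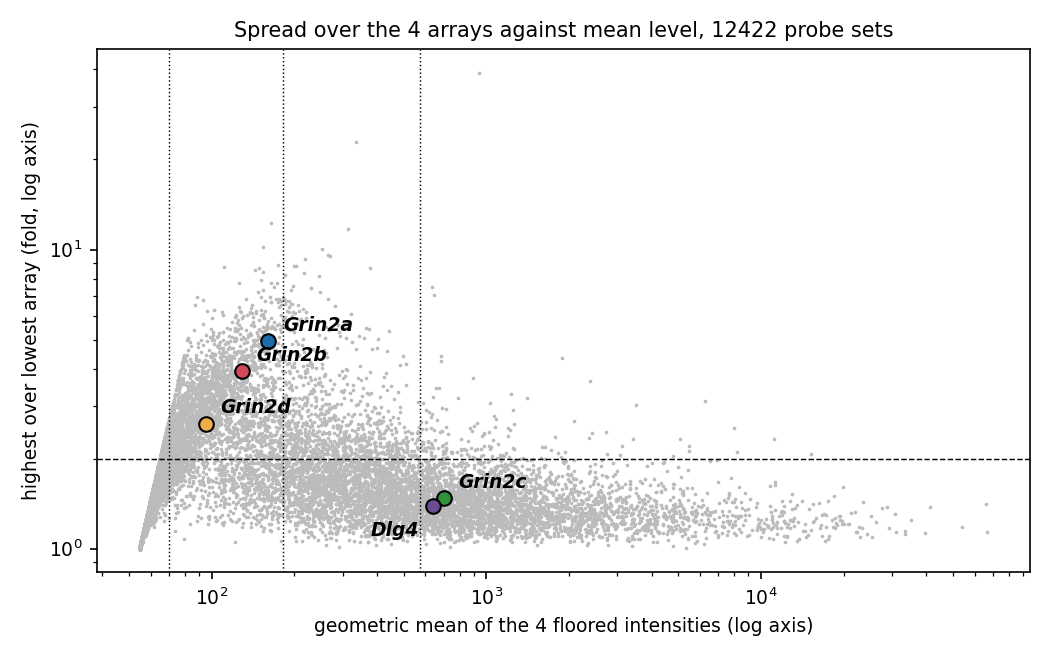
Highest over lowest array in fold against the geometric mean of the 4 floored intensities, both on log axes, for 12422 probe sets in grey, with the 5 members in colour, the bin edges dotted and the 2-fold line dashed. Grin2a, Grin2b and Grin2d lie above the 2-fold line among dim probe sets, and Grin2c and Dlg4 lie below it among bright ones.

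The 4 GluN2 subunits did not move together. Centred on its own mean, Grin2a minus Grin2b was 0.46, -2.29, 0.15 and 1.68 log2 units on the 1, 2, 4 and 6 hr arrays. This was the widest spread among the 10 pairs of members, at 3.98 log2 units, with a value at the floor on both the 2 and the 6 hr arrays, so that each end is limited by the floor. Their difference of 4 and 6 hr from 1 and 2 hr had opposite signs, at 1.19 log2 units for Grin2a (mean log2 7.92 later and 6.74 earlier) and -0.65 for Grin2b (6.69 later and 7.33 earlier). These sizes depended on the floor: with it at the 40th percentile they were 0.60 and -0.072, and with it at the 10th percentile they were 1.67 and -1.03. The opposite signs also rested on single arrays at the floor. Without its 2 hr array, Grin2a was left with 7.70 earlier, still below 7.92 later. Without its 6 hr array, Grin2b was left with 7.60 later, above 7.33 earlier, so the signs were then the same. The closest pair was Grin2c and Dlg4, with a root mean square difference of 0.40 log2 units, followed by Grin2c and Grin2d at 0.49 and Grin2b and Grin2d at 0.58. Grin2c and Dlg4 each departed little from their means, and their departures were opposite in sign on all arrays but the 4 hr one, where they were 0.05 and 0.001 log2 units.

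For the 3 members that ranged over at least 2-fold, the tested probe sets of other genes with the most similar 4 values were found by the root mean square difference of centred log2 values over the 4 arrays. Those nearest to Grin2a were Cfb, complement factor B, at 0.083 log2 units and Gsta2, a glutathione transferase, at 0.093. Cfb read 186.1, 24.7, 262.8 and 230.1 in time order, so it too was under the floor at 2 hr. Nearest to Grin2b were Sstr2, a somatostatin receptor, at 0.056 and Gucd1 at 0.069. Sstr2 read 117.3, 205.1, 202.3 and 56.6 in time order, and its 6 hr value lay just above the floor. Nearest to Grin2d were Gna11, a G protein alpha subunit, at 0.10, and Fntb, a farnesyltransferase subunit, also at 0.10. With 4 arrays and 7453 candidates, such likeness describes these values and carries no p.

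The smallest of 3 pathway lists held enzymes and transporters of glycine and D-serine, the co-agonists, together with other genes named for the receptor, and 8 of its 13 genes were on the array. They were Grina, which encodes a membrane protein of the TMBIM family, and 7 genes of serine and glycine metabolism or transport. Of the 8 tested, 4 had a slope above 0 and 4 below, 0 passed in either direction, and the median slope was 0.0086 log2 units per hr, beside 0.0015 over all probe sets tested. A range of at least 2-fold was seen in 2 of the 8 (25%), beside 25.3% of all tested, and 5 of the 8 lay in the brightest level bin. Phgdh, the entry enzyme of serine synthesis, read 163.6, 34, 162 and 243.2 in time order and shared with Grin2a a value under the floor at 2 hr. Shmt2, the mitochondrial enzyme that interconverts serine and glycine, had a later minus earlier difference of 0.36 log2 units, while its cytosolic counterpart Shmt1 read 353.5, 117.5, 311.2 and 90.8 in time order, a difference of -0.28. A second, dimmer Shmt1 probe set read 17, 22.5, 58.8 and 19.8 in time order, under the floor on all but the 4 hr array. Dao, the oxidase that degrades D-serine, read 288.2 at 1 hr and 160.9 to 180.5 on the later arrays. Slc6a9, the glycine transporter that clears co-agonist around the synapse, stayed between 1154 and 1348.

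Scaffold and trafficking genes of the postsynaptic density varied least of the 3 lists. Of 34 listed genes 15 were on the array and 13 were tested; 6 slopes lay above 0 and 7 below, 0 passed in either direction, and the median was -0.0045 log2 units per hr. Of the 13, 0 ranged over 2-fold (0%), beside 25.3% of all tested. However, 8 of the 13 lay in the brightest level bin, where 4.89% of probe sets did so, and 4 in bin 3, where 29% did. Their median range was 1.40-fold, beside 1.56-fold. Of the 2 untested genes, Actn2 was under the floor on every array and Kif1b, with a later minus earlier difference of 0.46 log2 units, ranged over 2.12-fold. Dlg1, the relative of Dlg4 that encodes SAP97, read 1227, 1257, 1003 and 986.8 in time order, a later minus earlier difference of -0.32 log2 units. Dlg3, which encodes SAP102, had 641.3, 486, 700 and 573.9, so that it shared with Dlg4 its lowest value at 2 hr but not its highest at 1 hr. Cript, which binds a PDZ domain of PSD-95, had 3639 at 1 hr and 2988 to 3163 on the later arrays, again highest at 1 hr as Dlg4 was. Homer1 and Homer2, scaffolds that link metabotropic receptors to the postsynaptic density, differed most in the opposite direction among the tested genes, by 0.46 and 0.40 log2 units, and both were lowest at 2 hr. A second, dimmer Homer1 probe set read 12.9, 10, 90.2 and 12.7 in time order, under the floor on all but the 4 hr array. The Homer2 values were nearly those of the probe set for Homer3, another gene of the list.

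Calcium sensors, kinases and phosphatases that act on or downstream of the receptor had 28 of 37 listed genes on the array and 24 tested. Slopes were above 0 for 10 and below 0 for 14, 0 passed in either direction, and the median was -0.014 log2 units per hr. A range of at least 2-fold was found in 4 of the 24 (16.7%), beside 25.3% of all tested, and 14 of the 24 lay in the brightest level bin. Camk2a, the calcium-dependent kinase that binds the tail of GluN2B, read 153.8, 137.3, 161.4 and 53.2 in time order, and like Grin2b it was under the floor at 6 hr. It had a slope of -0.26 ± 0.11 on that scale (SE, adjusted p = 0.973 in limma). That was the smallest adjusted p in the 3 lists when each gene was taken by its probe set of highest mean. A second Camk2a probe set read 7 to 19.4 on the 4 arrays, all under the floor, although Camk2a is known as an abundant transcript of CA1 pyramidal neurons, so a dim probe set in these files does not show that a transcript is scarce. Src, a tyrosine kinase that raises NMDA receptor currents, read 289.2, 133.8, 304.1 and 55.2 in time order and was also lowest at 6 hr.

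Among other genes of this list, Camk2b, the partner isoform of Camk2a, read 6566, 8047, 7636 and 9367 in time order, and Prkcb, a protein kinase C isoform, stayed between 16960 and 18660. Prkca, another isoform, read 286.9 at 1 hr and 430.6 to 509.5 on the later arrays. Ppp3cc, a catalytic subunit of calcineurin, read 102.3, 239.4, 244.6 and 172.5 in time order, lowest at 1 hr and level at 2 and 4 hr as Grin2d was.

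**Figure D4:**
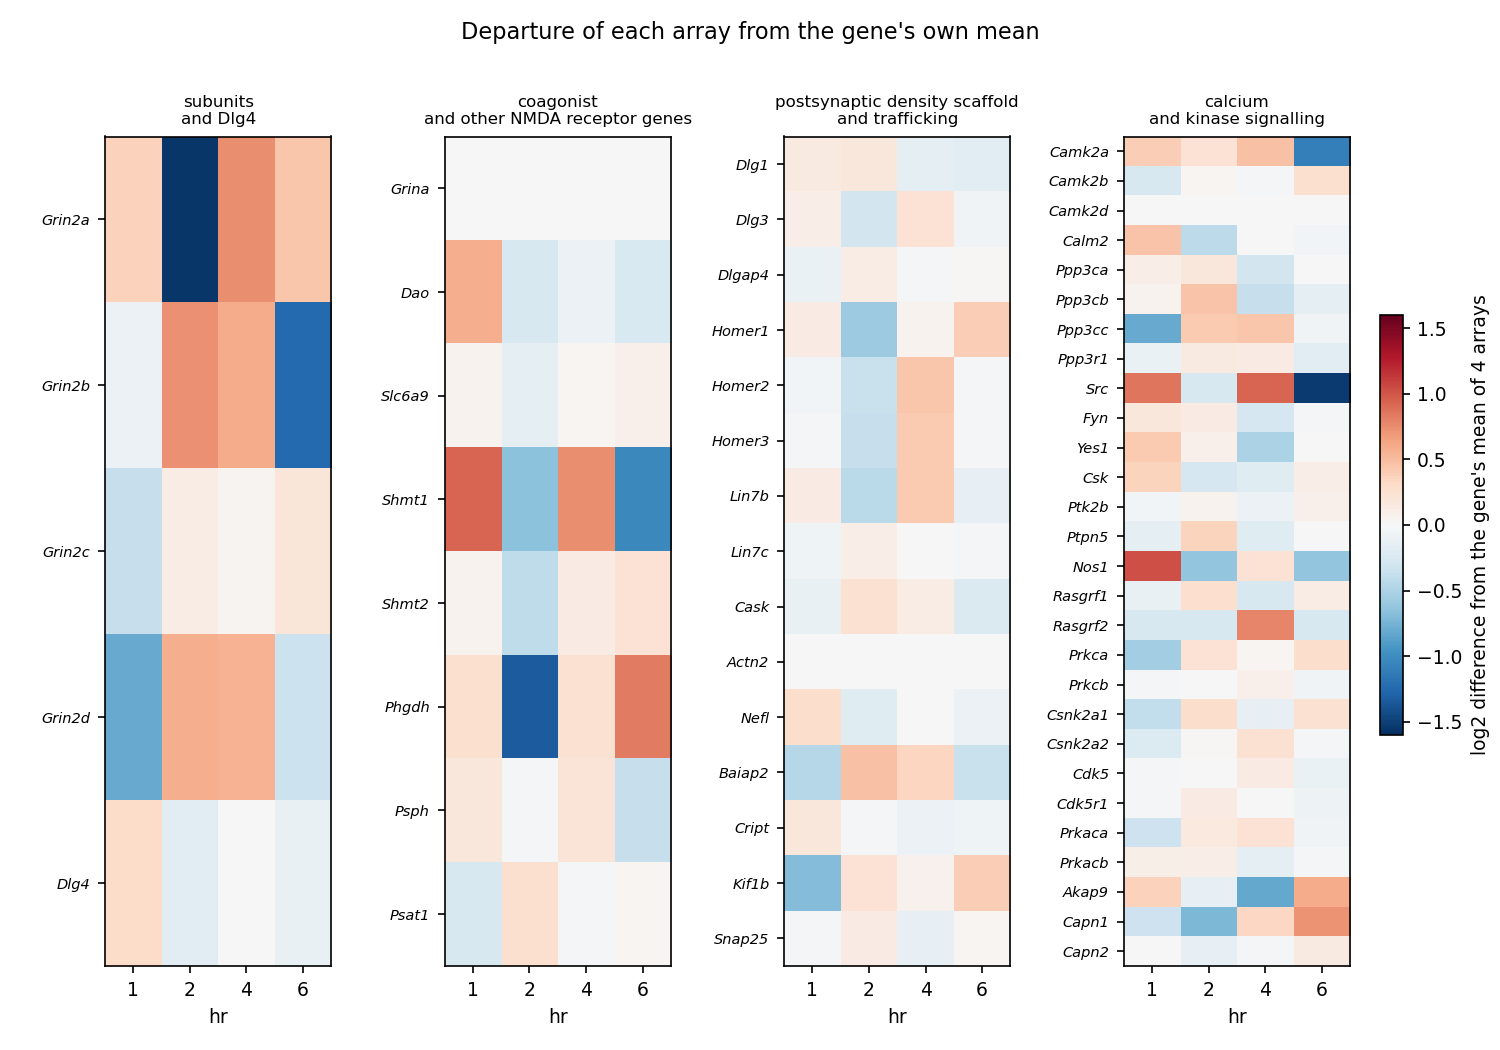
Log2 difference of each array from the gene's own mean over the 4 arrays (colour) for the 5 members and for the genes of the 3 pathway lists, with arrays from 1 to 6 hr from left to right. The dark cells of Grin2a and Phgdh at 2 hr and of Grin2b, Camk2a, Src and Shmt1 at 6 hr stand beside rows of pale cells such as Grina, Lin7c and Prkcb.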

How the data were processed

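The authors deposited 1 linear intensity per probe set and array, with 1 decimal and all values above 0. No source used here names the upstream software. Per the deposited values, each array had a mean of 500.3 after trimming 2% at each end, which hides any shift common to most genes. Without detection calls, whether a dim value exceeds background is unknown, and the number of arrays limits the precision. Names came from the platform annotation: 10855 probe sets had 1 symbol, 396 several and 1237 none, and 10839 matched RefSeq (GRCm38.p6) by Entrez identifier, with 0 symbols differing.

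Values were floored at the 25th percentile, log2 values were taken, and the 7453 of 12422 non-control probe sets with a mean above the 40th percentile were tested with limma 3.58.1 in R 4.3.3 (lmFit, eBayes; straight line over hours, 2 residual degrees of freedom, two-sided, Benjamini-Hochberg at 0.05). Folds are on the floored scale, so a fold with a value at the floor is a lower bound. On simulated data with 200 of 7453 probe sets changed, slopes of 0.8 (log2 per hr) were recovered in 87.5% of cases and slopes of 0.4 in 0%. The simulated noise was Gaussian, with no floor and a spread not tied to mean level. These shares need not hold for dim probe sets with values at the floor, such as Grin2a and Grin2b.

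Lists used each gene's probe set of highest mean. All member probe sets were named, with the 2 nearest probe sets for those ranging over 2-fold and the 2 most positive and 2 most negative later minus earlier differences per list among the tested genes, which left out untested ones such as Capn1, Rasgrf2 and Kif1b; the other genes named (Slc6a9, Dlg3, Actn2, Kif1b, Camk2b, Prkcb, and the members' marker genes) were added after their values were seen. The members, lists and tests were chosen with earlier results of these data known. Alternatives were 2 other scalings, floors and filters each, other variance models and time scales, and each array left out.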

Additional observations from a re-analysis of the deposited data

How the results depend on the processing

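Under all 14 alternatives to the slope fit, 0 probe sets, 0 members and 0 list genes passed the adjusted threshold (limma, or ordinary least squares in 1) (also 0 to 0 without each array in turn), with 229 to 781 probe sets at an unadjusted p under 0.05. Without the 1 hr array, 1 member had an unadjusted p under 0.05 in limma, and under each other alternative 0 did. The floor decided the descriptive counts. With the floor at the 40th percentile, 0 members stood apart in place of 2, and 1 ranged over 2-fold in place of 3, since a higher floor shortens every swing that ends at it. With the floor at the 10th percentile, 3 stood apart. The later minus earlier difference was 0.6 and 1.67 log2 units for Grin2a, -0.0718 and -1.03 for Grin2b, and -0.0138 and 0.589 for Grin2d, at the higher and lower floor in each case, beside 1.19, -0.646 and 0.215. Leaving out an array gave 2 to 3 members ranging over 2-fold. With an array left out in turn, the slope of Grin2b ran from -0.493 to 0.185 (without the 2 hr array it fell below the level filter and was not fitted) and that of Dlg4 from -0.0857 to 0.0118; the positive values, of opposite sign to the fit of all 4, came without the 6 hr array for Grin2b and without the 1 hr array for Dlg4. Shifting arrays to a common median raised the 2 hr array by 0.17 log2 units, and moved no member's difference of later from earlier times by more than the residual SD. Of 68 alternative values of such differences over members and named list genes, 65 moved by less than that SD. No paired analysis was possible because each time has 1 array. For the dim members a value at the floor gives only a bound.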

Other observations

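Grina, named for an NMDA receptor association and a member of the TMBIM family of membrane proteins, was the steadiest of the 7453 tested probe sets, and it was singled out after its values were seen. Its brighter probe set read 5362, 5374, 5346 and 5347 at 1, 2, 4 and 6 hr, a range of 1.005-fold, and 0 tested probe sets had a smaller one. Its second probe set did not share that steadiness and read 1095, 1825, 1509 and 1969 in the same order, a range of 1.80-fold.

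The probe sets named Homer2 and Homer3 gave almost the same values on every array, also noticed after the values were seen. Homer2 read 426.4, 344, 596.3 and 428.9 in time order and Homer3 read 437.5, 347.2, 596.2 and 441.5, which differ by 0.017% to 2.85% on an array. Of 7452 other tested probe sets, 0 lay closer than Homer3 to the 4 Homer2 values, with a root mean square difference of 0.029 log2 units. Whether the probes of these paralogs share sequence was not tested.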
